A study of Mus musculus with 32 samples.

Results

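The genes described here encode the β-catenin destruction complex and the proteins that act directly on it. They were chosen by name, as a list of 10 gene symbols: the scaffolds Apc, Apc2 and Axin1, the kinases Gsk3a, Gsk3b and Csnk1a1, the F-box proteins Btrc and Fbxw11, and the Dishevelled proteins Dvl1 and Dvl2. Each symbol matched 1 Ensembl identifier, so 10 of the 31053 genes in the count files were followed over all 32 libraries.

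In cells without a Wnt signal, Axin and APC hold β-catenin next to casein kinase 1α, the product of Csnk1a1, which phosphorylates it first, and to the GSK-3 kinases, which then phosphorylate it further. The F-box proteins encoded by Btrc and Fbxw11 recognise the phosphorylated protein and pass it to a ubiquitin ligase, and the proteasome degrades it. When Wnt binds its receptors, Dishevelled recruits Axin to the membrane, the complex is inhibited, and β-catenin accumulates and enters the nucleus, where it acts with TCF/LEF factors. In mouse embryonic stem cells (ESCs) inhibition of GSK-3 is one of the ingredients that holds cells in the ground state of pluripotency.

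All libraries came from the mouse ESC line C1, in 8 groups of 4 cultures that the labels call biological replicates. The line is BetaCatenin Knockout in every group: the whole β-catenin coding sequence was removed, and 2 lentiviruses brought in the transactivator rtTA under the EF1a promoter and a fusion of a destabilising domain, mCherry and the constitutively active S33Y form of β-catenin under the TRE3G promoter. Doxycycline (dox) starts transcription of the fusion and trimethoprim (TMP) stabilises the protein, which escapes degradation by the complex described here. At day 0, C1 had received TMP only (10 µM, 48 h), whereas C1M and C1H had received dox (100 ng/mL) with TMP and were sorted for moderate and for high mCherry. At day 4 of monolayer differentiation, C1T came from C1 and was kept in TMP, C1MV and C1HV came from C1M and C1H and had the inducers replaced by DMSO, and C1MDT and C1HDT came from the same populations and stayed in dox and TMP. Day 0 cells grew with LIF, 3 µM of the GSK-3α/β inhibitor Chiron and 1 µM of the MEK inhibitor PD0325901 (2i/L), and day 4 cells grew without LIF and both inhibitors. The labels name serum with LIF for all samples, and the medium given here is that of the methods description. Day and medium therefore cannot be told apart, for the Gsk3a and Gsk3b transcripts as for the others. Only the groups with the fusion induced had received dox and were sorted on mCherry, which cannot be told apart from the fusion itself. C1MV and C1HV also lacked the TMP that C1T kept during differentiation. Between kept and withdrawn inducers, dox and TMP differ together with the fusion.

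Libraries held 1366951 to 3648787 reads on genes (median 2402467). The Ctnnb1 gene had a mean of 7.81 ± 2.63 CPM (SD, n = 4; CPM is a gene's share of the reads on genes of a library, scaled by TMM) in C1, 12.2 ± 3.84 in C1M and 41.1 ± 5.70 in C1H. At day 4 it had 9.74 ± 2.47 in C1T, 9.15 ± 2.57 in C1MV and 6.21 ± 1.84 in C1HV, against 29.2 ± 4.29 in C1MDT and 30.8 ± 3.75 in C1HDT. C1H, C1MDT and C1HDT were the highest, and the difference between C1M and C1 did not pass edgeR's test (log2 fold change of 0.61 ± 0.25, FDR 0.0553, defined below). The tables do not show where in the gene these reads lay, so they do not check the knockout. The 7 naive pluripotency markers summed to between 5168 and 5450 CPM in the libraries of C1 and to between 3601 and 4055 CPM in those of C1M and C1H. At day 4 they summed to between 415 and 570.2 CPM in C1T, between 755 and 1026 CPM in C1MV and C1HV and between 274 and 408 CPM in C1MDT and C1HDT, with no overlap between these sets of libraries within a day. The 5 endoderm markers summed to between 77.4 and 138 CPM in the libraries of C1MV, C1MDT, C1HV and C1HDT and to between 3.26 and 11.2 CPM in C1T. The share of uniquely aligned reads that were given to no single gene, because they fell on none or on more than 1, also moved with the day, from between 20.1% and 23.5% at day 0 to between 10.7% and 16.2% at day 4. The part of these differences in the results below was not tested, and in bulk cultures fewer cells of a type and less RNA per cell cannot be told apart.

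Of the 10 genes, 9 were well above the counting floor of 3 reads, equal to 0.822 CPM in the deepest library and 2.19 CPM in the shallowest. Apc2 was the exception, with 47 reads over the 32 libraries, at most 4 in any of them and more than 3 in only 3 of them. It lies on chromosome 10, 80295977 to 80318263, and encodes the APC paralogue best known from neurons, and with both groups at or near the floor no fold change is given for it. It passed the filter on low counts and no comparison called it, although C1MDT vs C1M did so without C1M replicate 2 or without C1MDT replicate 1 or 4. On the other strand, 2310011J03Rik, with an exon within the last 1000 bases of Apc2, had 2481 reads in all. QuantSeq reads the 3′ end of transcripts, and levels are compared here between groups for 1 gene at a time. Between genes only the change of a ratio of counts from group to group is read, not its size. Where the libraries of groups are said not to overlap, the share of all genes that separate likewise was not counted. Over the 8 groups, edgeR called 78.0% of all genes tested.

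**Figure D1:**
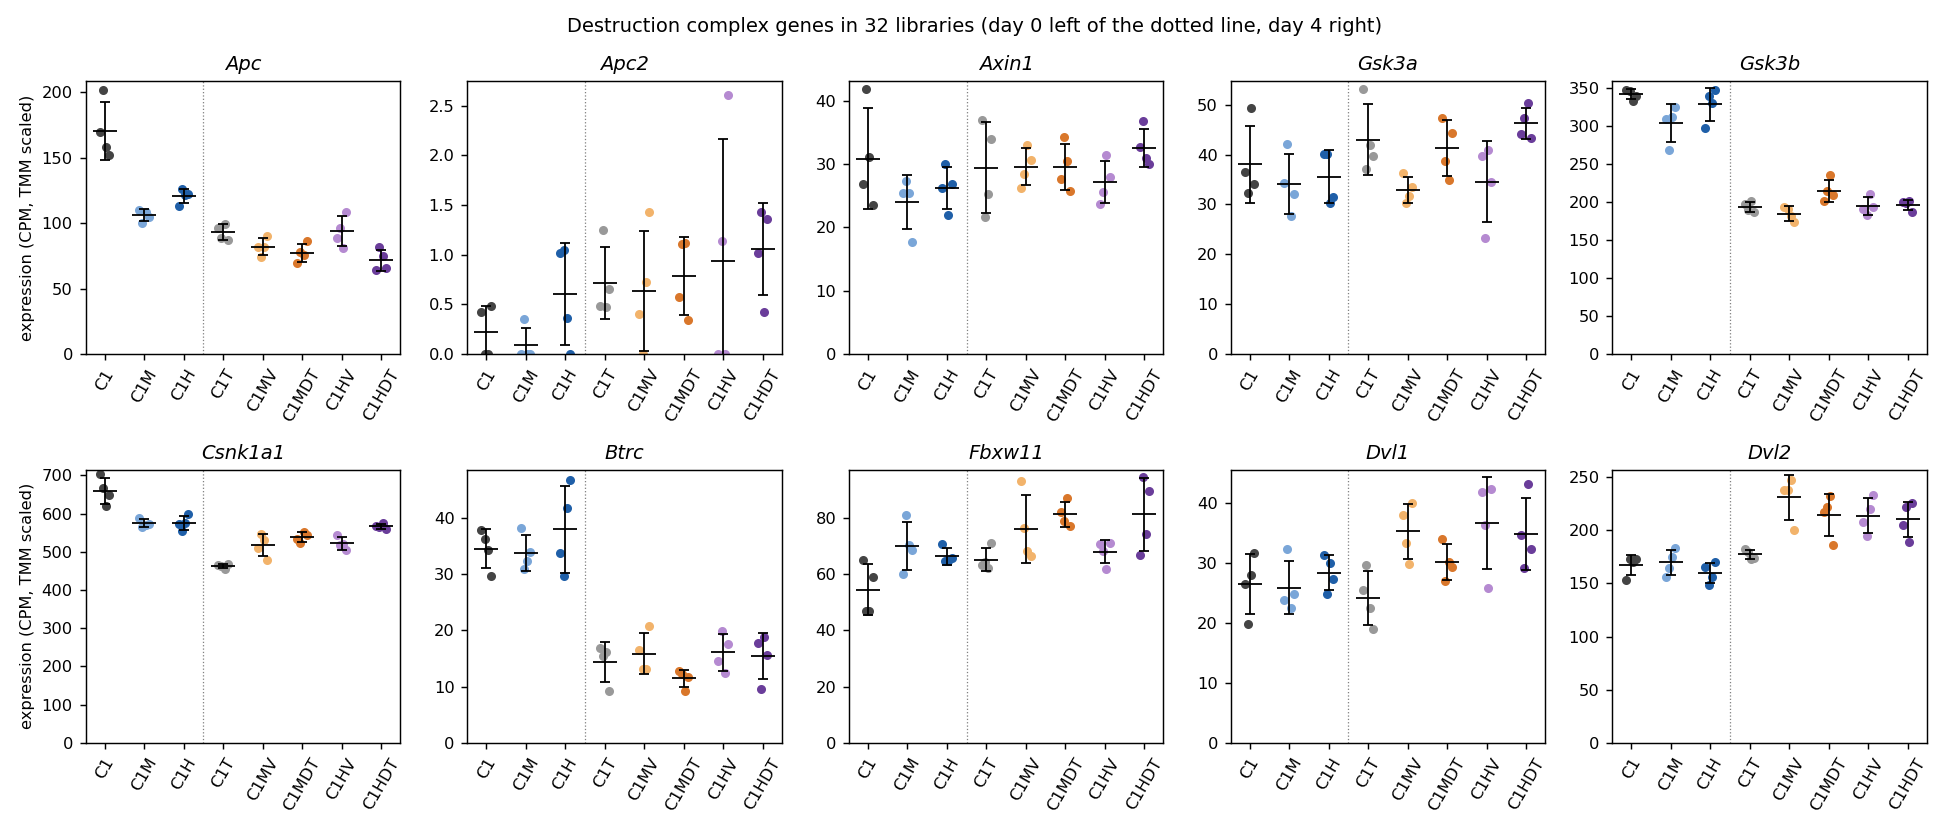
Expression of the 10 destruction complex genes in CPM (vertical axes, each from 0) in the 8 groups (horizontal axes), with 1 point per library and the mean and SD of 4 libraries in black. Gsk3b and Btrc separate day 0 from day 4 without overlap, every Apc and Csnk1a1 library of C1 lies above all other libraries, and every Dvl2 library of the 4 day 4 groups that had carried the fusion lies above all other libraries. The share of all genes that separate in these ways was not counted.

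Between day 0 and day 4, Apc, Gsk3b and Btrc fell in all 5 comparisons, with or without induction of the fusion, and Dvl2 rose in the 4 that started from induced cells. In the uninduced cells (C1T vs C1) 4 of the 10 genes passed edgeR's quasi-likelihood test at an FDR under 0.05, all of them lower, where 49.3% of the 15280 genes tested did and 24.9% were lower. P-values were adjusted over these genes by the Benjamini-Hochberg method (FDR), a gene that passed is said to be called, and values are log2 fold changes of the first group over the second ± their standard error (SE). The count was 6 in C1MV vs C1M (45.9% of all genes tested), 4 in C1MDT vs C1M (52.4%), 4 in C1HV vs C1H (47.0%) and 6 in C1HDT vs C1H (55.7%). The members' share was thus near that of all genes, and the median log2 fold change of all genes tested lay between -0.06 and 0.01 in these comparisons. Between 3649 and 4494 of the 15280 genes were called lower in each of the 5 comparisons. In each of the 4 that started from induced cells, between 3354 and 4023 were called higher. How many genes were lower in all 5, or higher in all 4, was not counted.

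**Figure D2:**
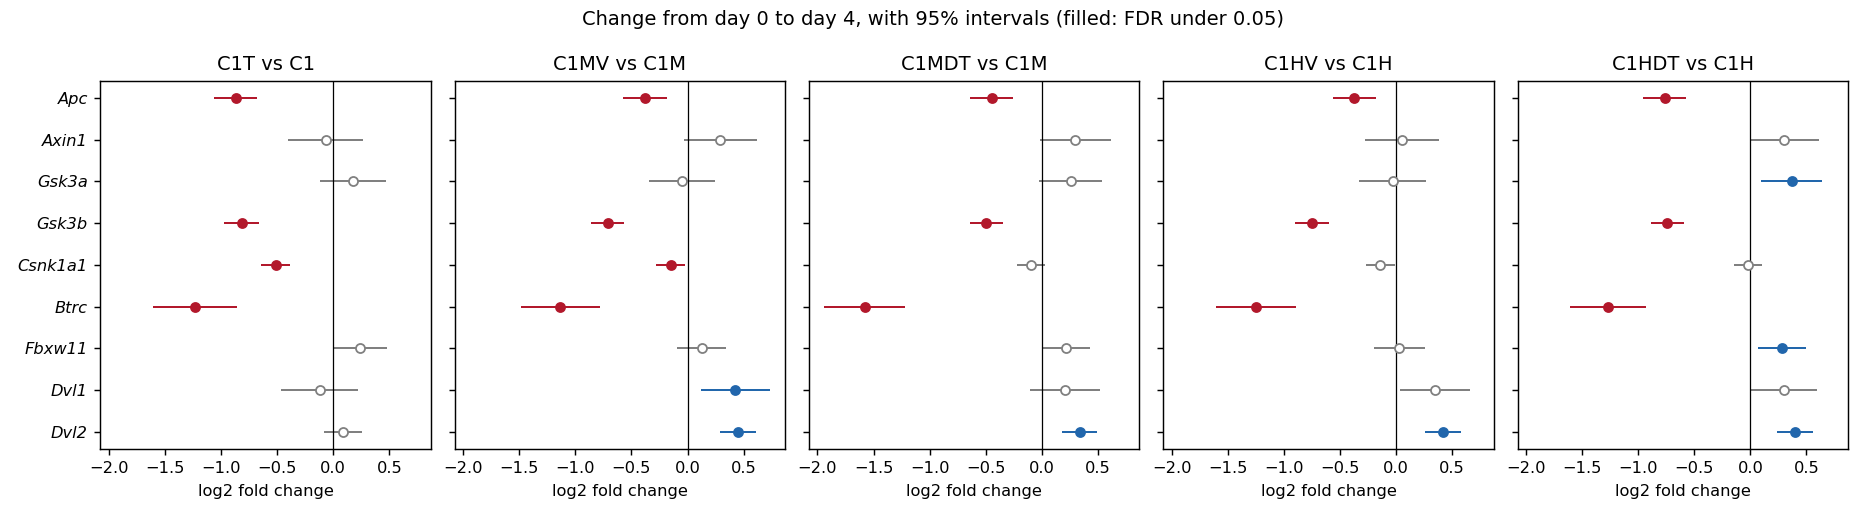
Log2 fold change from day 0 to day 4 (horizontal axes) of 9 destruction complex genes, without Apc2, in 5 comparisons, with 95% intervals from edgeR. Filled points passed an FDR of 0.05 (red lower, blue higher): Apc, Gsk3b and Btrc were lower in all 5, and Dvl2 was higher in the 4 that started from induced cells.

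Before differentiation, induction of the fusion was accompanied by lower Apc and Csnk1a1. In C1M vs C1 3 of the 10 genes were called (26.3% of all genes tested), Apc and Csnk1a1 lower and Fbxw11 higher, and in C1H vs C1 2 were called (25.9%), Apc and Csnk1a1. None of the 10 was called between C1H and C1M (1.77% of all genes; edgeR called 271, and 1914 had an unadjusted p under 0.05), although Ctnnb1 was higher in C1H (log2 fold change of 1.76 ± 0.18, FDR 1.56e-13). Both comparisons with C1 share its 4 libraries, so their members' values are not independent of each other. They are also shared with C1T vs C1. The naive marker sum moved with these differences, from a mean of 5285 CPM in C1 to 3711 in C1M and 3911 in C1H, and its part in them was not tested. Other marker sums also separated C1 from both groups without overlap. Mean CPM in C1, C1M and C1H were 9.39, 17.4 and 15.9 for endoderm and 15.0, 9.59 and 9.24 for mesoderm. They were 40.7, 27.4 and 34.4 for trophectoderm and 6.47, 14.4 and 14.1 for fibroblast feeder markers. Pluripotency, primed epiblast and neural sums overlapped between C1M and C1. None of this was tested.

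At day 4, cells that had carried the fusion had more Csnk1a1 and Dvl2 RNA than C1T in all 4 comparisons, which share the C1T libraries. The counts were 4 in C1MV (30.2% of all genes tested), 4 in C1MDT (33.4%), 3 in C1HV (28%) and 5 in C1HDT (33.5%). The share of all genes called higher in all 4 comparisons was not counted. Keeping the inducers on rather than withdrawing them left 1 call in C1MDT vs C1MV, Gsk3b (12.6%), and 2 in C1HDT vs C1HV, Apc and Gsk3a (16.0%). The naive marker sum moved with this contrast, with means of 327 CPM in C1MDT and 336 in C1HDT against 902 in C1MV and 794 in C1HV. The sum of 3 neural markers was 195 and 176 CPM with the inducers against 109 and 119 without them, and that of 4 primed epiblast markers 1015 and 1035 against 616 and 663, none of the libraries overlapping between kept and withdrawn inducers. The part of these markers in the calls was not tested. Between the moderate and high populations none of the 10 genes was called at day 4. C1HV vs C1MV gave 0 calls (0.00654% of all genes, which is 1 gene; 1150 had an unadjusted p under 0.05) and C1HDT vs C1MDT gave 0 (0.0%; 814 genes). DESeq2 called none of the 10 either in these comparisons or in C1H vs C1M.

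**Figure D3:**
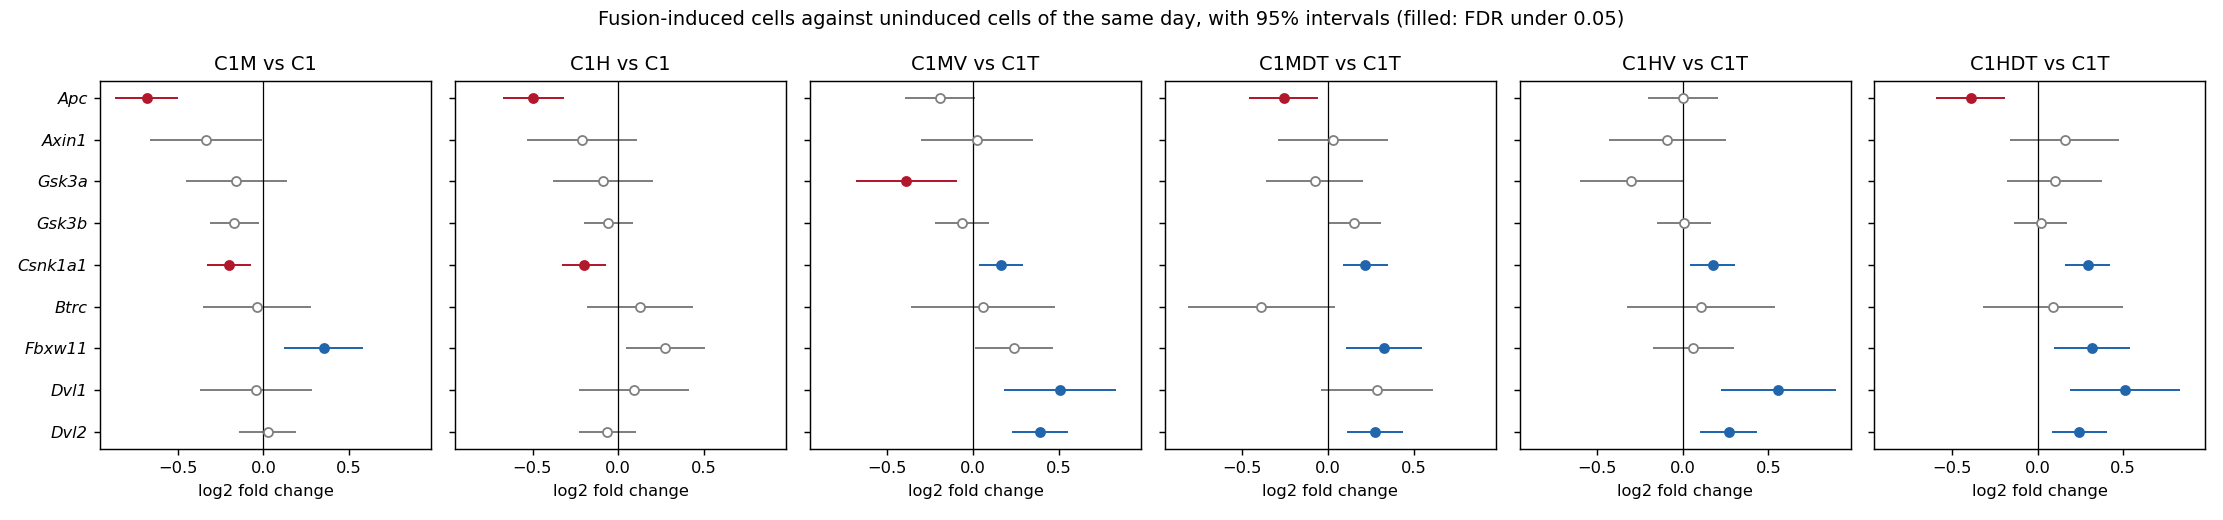
Log2 fold change (horizontal axes) of the same 9 genes in cells that had carried the fusion against uninduced cells of the same day, with 95% intervals from edgeR and filled points at an FDR under 0.05. Apc and Csnk1a1 are lower in both day 0 comparisons, and Csnk1a1 and Dvl2 are higher in all 4 day 4 comparisons.

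Apc (chromosome 18, 34220924 to 34322552 on GRCm38) encodes the large scaffold that binds β-catenin and Axin. Its levels in C1 were 169, 201, 158 and 152 CPM, against 110.3, 100.3, 108 and 105 CPM in C1M and 113, 126, 122 and 122 CPM in C1H. Every C1 library was higher than every library of the other 7 groups. The difference was a log2 fold change of -0.68 ± 0.09, FDR 5.60e-10 in C1M and a log2 fold change of -0.49 ± 0.09, FDR 4.28e-06 in C1H. At day 4 it was 96.4, 88.7, 99.6 and 86.8 CPM in C1T, a log2 fold change of -0.87 ± 0.10, FDR 1.18e-14. It was 81.8, 74.5, 82.1 and 89.9 CPM in C1MV and 88.8, 96.5, 81.3 and 109 CPM in C1HV, where the inducers had been withdrawn. With the inducers kept it was 69.8, 77.8, 75.9 and 86.0 CPM in C1MDT and 63.9, 81.7, 74.5 and 65.7 CPM in C1HDT, the lowest group mean of the 8 (71.5 ± 8.24, SD, n = 4). Against C1T, Apc was lower in C1HDT (log2 fold change of -0.39 ± 0.10, FDR 0.00119) and C1MDT (log2 fold change of -0.26 ± 0.10, FDR 0.0376), and was not called in C1MV (log2 fold change of -0.19 ± 0.10, FDR 0.158) or C1HV (log2 fold change of 0.00 ± 0.10, FDR 1). The C1MDT call was lost in 9 of 15 alternative analyses, 7 of them the omission of 1 library of C1T (any of the 4) or of C1MDT (replicates 1, 2 or 3). In the high population Apc was lower with the inducers than without (log2 fold change of -0.39 ± 0.10, FDR 0.00318), with overlapping libraries, and in the moderate population the same contrast was not called (log2 fold change of -0.07 ± 0.10, FDR 0.746). The difference between those 2 contrasts was not tested. In the order of the 8 means, C1 was called above the next group, C1H, and no later pair of neighbours was separated by the test.

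The fall of Apc from C1 to C1T was steeper than the falls in C1MV, C1MDT and C1HV. The change from day 0 to day 4 was smaller than in uninduced cells by 0.49 ± 0.14 (SE, log2) in C1MV (FDR 0.00427), by 0.42 ± 0.14 in C1MDT (FDR 0.0139) and by 0.50 ± 0.14 in C1HV (FDR 0.00381), each tested in edgeR as an interaction. For C1HDT this difference was not called. Each interaction combines the day 0 and the day 4 difference from uninduced cells. At day 0 the log2 fold change of Apc against C1 was -0.68 in C1M and -0.49 in C1H. At day 4 its log2 fold change against C1T was -0.19 in C1MV, -0.26 in C1MDT and 0.00 in C1HV. These interactions called 3 of the 10 genes in C1MV (22.5% of all genes tested), 3 in C1MDT (24.4%), 3 in C1HV (21.9%) and 2 in C1HDT (25.2%), and all of them use the C1 and C1T libraries.

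Axin1 (chromosome 17, 26138688 to 26195811), the scaffold that assembles the complex, was called in none of the 20 comparisons. Its libraries ranged from 17.7 to 41.9 CPM over the whole series, with group means from 24.0 (C1M) to 32.6 CPM (C1HDT). Its lowest FDR was 0.0881, and in C1M vs C1 the 95% interval of the log2 fold change ran from -0.66 to -0.01. That comparison was called without C1 replicate 4, as were C1HDT vs C1H without C1H replicate 2 and C1MDT vs C1M without C1MDT replicate 4. The libraries of all 8 groups overlapped on their neighbours in the order of the means.

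Csnk1a1 (chromosome 18, 61555274 to 61590061) encodes casein kinase 1α, the priming kinase. Its levels in C1 were 702, 668, 620.0 and 648 CPM, all above every other library of the series. They were 589.6, 566, 571 and 573 CPM in C1M (log2 fold change of -0.20 ± 0.06, FDR 0.0139) and 572, 555, 575 and 598 CPM in C1H (log2 fold change of -0.20 ± 0.06, FDR 0.0143). With counts scaled to library size alone, neither day 0 difference passed the test, with log2 fold changes of -0.14 and -0.12. At day 4 the order was turned round. C1T was the lowest group, at 466, 462, 456 and 467 CPM (log2 fold change of -0.51 ± 0.07, FDR 1.30e-11), with every library below all others of the series.

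The cells that had carried the fusion kept Csnk1a1 closer to its day 0 level. It was 511, 548, 530.0 and 479 CPM in C1MV and 543, 518, 521 and 505 in C1HV after withdrawal, and 534, 522, 552 and 543 in C1MDT and 566, 563, 576 and 561 in C1HDT with the inducers kept. C1HDT was higher than C1T by 0.29 ± 0.07 (FDR 0.00013), C1MDT by 0.22 ± 0.07 (FDR 0.0054), C1HV by 0.17 ± 0.07 (FDR 0.0376) and C1MV by 0.16 ± 0.07 (FDR 0.0499) on the log2 scale. Of these, the C1MV call was at the threshold and was lost in 10 of 15 alternatives, and the C1HV call was lost without C1T replicate 1 or 3 or C1HV replicate 1, whereas the other 2 held throughout. From day 0 to day 4 the change was not called in C1MDT (log2 fold change of -0.10 ± 0.06, FDR 0.215), C1HV (log2 fold change of -0.14 ± 0.07, FDR 0.0704) or C1HDT (log2 fold change of -0.02 ± 0.06, FDR 0.799). Every C1MDT library was nevertheless below every C1M library and every C1HV library below every C1H library. DESeq2 called both of these falls, and that in C1HV was also called with RLE size factors, library size only or a filter of at least 1 CPM in all libraries. The fall in C1MV (log2 fold change of -0.15 ± 0.07, FDR 0.0493) was lost in 11 of 15 alternatives, among them the omission of any 1 of its 8 libraries. The interaction with the uninduced change was called in all 4 lines of descent, with log2 differences from 0.36 ± 0.09 (SE; C1MV, FDR 0.00145) to 0.49 ± 0.09 (C1HDT, FDR 7.22e-06). These differences include the day 0 difference from C1, a log2 fold change of -0.20 in C1M and in C1H.

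The GSK-3 kinases are encoded by Gsk3a and Gsk3b, which phosphorylate β-catenin after casein kinase 1α has done so and are the targets of Chiron. Gsk3b (chromosome 16, 38089001 to 38246084) was 348, 346, 333 and 340.2 CPM in C1, 309.6, 269, 312 and 326 in C1M and 298, 339.7, 331 and 347 in C1H. At day 4 it was 197, 190.2, 201 and 187 CPM in C1T, 194, 190.5, 182 and 173 in C1MV and 191, 183, 211 and 193 in C1HV after withdrawal, and 201, 215, 235 and 209 in C1MDT and 199.6, 199, 201 and 187 in C1HDT with the inducers kept. The 12 libraries of day 0 all lay above the 20 of day 4. Its fall was a log2 fold change of -0.82 ± 0.08, FDR 1.12e-18 without induction, and a log2 fold change of -0.49 ± 0.07, FDR 3.67e-09 in C1MDT, where it was smallest. In C1MDT the fall was smaller than in uninduced cells by 0.32 ± 0.11 on the log2 scale (SE, edgeR FDR 0.0161). C1MDT was also above C1MV (log2 fold change of 0.22 ± 0.08, FDR 0.0447), a call lost in 8 of 15 alternatives, leaving out C1MV replicate 3 or 4 or C1MDT replicate 2 or 3 among them. Day 0 induction gave no call for it in edgeR's fit of all groups, with a log2 fold change of -0.17 ± 0.07, FDR 0.0759 in C1M. Every C1M library was below every C1 library, and the difference was called by DESeq2, when C1M and C1 were fitted alone and without C1M replicate 4. C1MDT was not called against C1T, except with library size only or without C1MDT replicate 1.

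Gsk3a was called lower in no comparison between days. The gene lies on chromosome 7, 25228258 to 25237851. It was 36.5, 32.3, 49.3 and 34.02 CPM in C1 and 53.2, 37.04, 41.9 and 39.8 CPM in C1T, with overlapping libraries (log2 fold change of 0.18 ± 0.15, FDR 0.33). Its highest group was C1HDT, at 44.2, 47.3, 50.2 and 43.2 CPM, above C1H at 40.2, 40.1, 30.4 and 31.5 CPM (log2 fold change of 0.37 ± 0.14, FDR 0.0172) and above C1HV at 39.8, 23.3, 40.9 and 34.5 CPM (log2 fold change of 0.40 ± 0.15, FDR 0.0478). The first of these calls was lost in 5 alternatives, without C1H replicate 3 or 4 or C1HDT replicate 3 among them, and the second in 12, without any 1 library of C1HDT and without C1HV replicate 2 or 4 among them. A rise in C1MDT vs C1M was called only without C1M replicate 2 or C1MDT replicate 3. C1MV, at 36.3, 30.3, 31.6 and 33.5 CPM, was below C1T (log2 fold change of -0.39 ± 0.15, FDR 0.0364), a call lost in 6 alternatives, which include leaving out C1T replicate 1 or 3 or C1MV replicate 2, 3 or 4. On the strand opposite to Gsk3a lies 9130221H12Rik, with an exon within the last 1000 bases of Gsk3a. It had 350 reads over all libraries, and whether the counting used strand was not stated.

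RefSeq promoter windows on GRCm38.p6, from 250 bases before to 50 bases after the start, were found for 6 of the 10 genes, namely Apc2, Dvl1, Dvl2, Fbxw11, Gsk3a and Gsk3b. They were searched on both strands for the TCF/LEF core letters CTTTGAT and CTTTGAA, which do not overlap each other's matches here. Of 32851 windows of this length, 3.73% held the first and 5.14% the second, and 8.65% held either. Among the 6 genes only Gsk3a held one, CTTTGAA on the opposite strand, from 158 to 152 bases before the start. The windows of both kinase genes are shown because Gsk3b fell between days and Gsk3a was not called lower, with that match in capitals, 5′ to 3′ along the strand of the gene. The match is a description of these letters and not a site.
Gsk3a, chr7:25237802-25238101, minus strand: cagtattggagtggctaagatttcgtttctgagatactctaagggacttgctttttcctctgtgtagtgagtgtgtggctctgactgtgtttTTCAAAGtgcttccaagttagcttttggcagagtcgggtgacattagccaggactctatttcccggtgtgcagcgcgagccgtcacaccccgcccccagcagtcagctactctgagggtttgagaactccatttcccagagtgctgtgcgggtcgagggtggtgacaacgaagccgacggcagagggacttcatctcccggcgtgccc
Gsk3b, chr16:38088751-38089050, plus strand: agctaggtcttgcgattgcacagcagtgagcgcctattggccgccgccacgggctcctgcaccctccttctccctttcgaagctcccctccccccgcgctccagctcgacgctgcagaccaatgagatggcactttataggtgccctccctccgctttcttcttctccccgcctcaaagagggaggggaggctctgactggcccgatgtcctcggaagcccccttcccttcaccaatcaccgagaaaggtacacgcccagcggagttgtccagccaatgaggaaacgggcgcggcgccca

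Btrc and Fbxw11 encode the paralogous F-box proteins β-TrCP1 and β-TrCP2, the receptors that recognise phosphorylated β-catenin. Btrc (chromosome 19, 45363734 to 45530013) showed the largest called change of the 10 genes in each comparison between days. It was 37.8, 36.2, 34.2 and 29.7 CPM in C1, 38.2, 30.8, 32.2 and 33.8 in C1M and 33.7, 29.6, 41.7 and 46.6 in C1H, and then 16.8, 15.4, 16.2 and 9.13 CPM in C1T, 16.5, 13.1, 13.1 and 20.7 in C1MV and 14.5, 19.9, 12.5 and 17.6 in C1HV after withdrawal, and 12.7, 12.2, 9.21 and 11.7 in C1MDT and 17.7, 9.55, 18.8 and 15.7 in C1HDT with the inducers kept. Day 0 and day 4 libraries did not overlap. The 5 falls ran from a log2 fold change of -1.13 ± 0.18, FDR 2.44e-08 in C1MV to a log2 fold change of -1.58 ± 0.18, FDR 1.05e-13 in C1MDT, and each held in all 15 alternatives. Within a day, no comparison called Btrc. The lowest group, C1MDT, was below C1MV by a log2 fold change of -0.45 ± 0.21, FDR 0.167, short of the threshold.

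Fbxw11 was called lower in none of the 20 comparisons and higher in 4 of them. Fbxw11 (chromosome 11, 32642724 to 32746816) was 65.0, 47.0, 46.7 and 58.9 CPM in C1, the lowest group, and 59.8, 80.8, 70.4 and 68.5 in C1M (log2 fold change of 0.35 ± 0.12, FDR 0.0151), with overlapping libraries. That call was lost without C1 replicate 2 or 3 or C1M replicate 2, and in C1H, at 70.8, 64.4, 64.4 and 65.5 CPM, the difference was not called (log2 fold change of 0.27 ± 0.12, FDR 0.0709), except with library size only, a filter of at least 1 CPM in all libraries or without C1 replicate 1. At day 4 it was 63.3, 64.1, 61.9 and 71.1 CPM in C1T, 93.1, 76.3, 68.3 and 66.3 in C1MV and 70.8, 68.1, 61.9 and 70.9 in C1HV, against 81.9, 78.9, 87.1 and 77.0 in C1MDT and 66.6, 94.6, 74.1 and 89.5 in C1HDT. It was called above C1T in the 2 groups that kept the inducers, C1MDT (log2 fold change of 0.33 ± 0.11, FDR 0.016) and C1HDT (log2 fold change of 0.32 ± 0.11, FDR 0.0195). In the withdrawn groups the difference from C1T was not called, with a log2 fold change of 0.24 ± 0.11, FDR 0.107 in C1MV and a log2 fold change of 0.06 ± 0.12, FDR 0.763 in C1HV, although that in C1MV was called with library size only or without C1MV replicate 4. The C1MDT call was lost only without C1MDT replicate 3, and the C1HDT call without C1T replicate 1 or 3 or C1HDT replicate 2 or 4. Against the withdrawn groups themselves the difference was not called in either population, except in the high one without C1HDT replicate 1. From day 0 to day 4 it rose in the high population with inducers (log2 fold change of 0.28 ± 0.11, FDR 0.0186), a call lost in 5 alternatives, without C1HDT replicate 2 or 4 among them. It was also called higher in C1MDT vs C1M without C1M replicate 2 or C1MDT replicate 4, and in C1T vs C1 without C1 replicate 1.

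**Figure D4:**
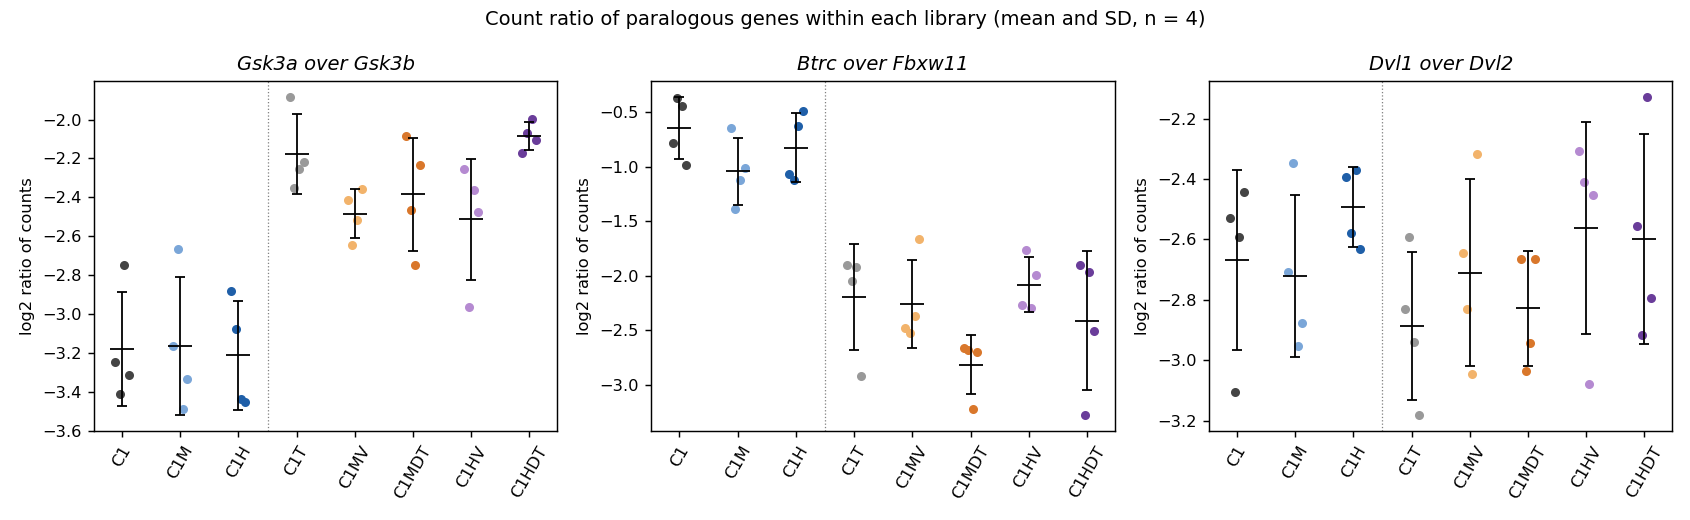
Log2 ratio of the counts of paralogous genes within each library (vertical axes) by group (horizontal axes), with 1 point per library and the mean and SD of 4 in black. Btrc over Fbxw11 is lower in every day 4 library than in every day 0 library, Gsk3a over Gsk3b is higher in the mean of every day 4 group than at day 0, and Dvl1 over Dvl2 overlaps between the groups of each of the 13 comparisons tested.

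The balance within each pair of paralogues was read from the ratio of their counts in each library, which is free of the scaling between libraries. In the plot of ratios, Btrc over Fbxw11 was lower at day 4. The log2 ratio of Btrc to Fbxw11 was -0.65 ± 0.29 (SD, n = 4) in C1 and -2.19 ± 0.49 (SD, n = 4) in C1T, a difference of -1.55. The differences were -1.22 in C1MV and -1.78 in C1MDT from C1M, and -1.26 in C1HV and -1.59 in C1HDT from C1H. The libraries of the groups compared did not overlap in any of these 5 comparisons. The log2 ratio of Gsk3a to Gsk3b was -3.18 ± 0.29 (SD, n = 4) in C1 and -2.18 ± 0.20 (SD, n = 4) in C1T, a difference of 1.00. It was higher by 0.68 in C1MV and 0.78 in C1MDT than in C1M, and by 0.70 in C1HV and 1.13 in C1HDT than in C1H, with overlapping libraries in C1MDT and C1HV (exact permutation p = 0.0571 for each). Within day 4 the ratio was lower in C1MV than in C1T by a difference of -0.31 and higher in C1HDT than in C1HV by 0.43, and that of Btrc to Fbxw11 was lower in C1MDT than in C1MV by a difference of -0.56, without overlap in these 3 comparisons. The last 2 rested in part on 1 library each, with differences of 0.28 without C1HV replicate 2 and -0.36 without C1MV replicate 4. With 4 libraries against 4, the exact two-sided permutation test cannot give a p below 0.0286. The 6 Btrc and 5 Gsk3a comparisons given here whose libraries did not overlap reached it, and over the 39 ratio comparisons made their Benjamini-Hochberg adjusted p was 0.101, so no ratio passed 0.05. Dvl1 over Dvl2 gave no p at this minimum, and Apc2 was too low for a ratio to Apc.

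Dvl1 and Dvl2 encode Dishevelled proteins, which relay the Wnt signal to the complex. Dvl2 (chromosome 11, 70000595 to 70012301) was 154, 173, 170.2 and 173 CPM in C1, 157, 165, 175 and 183 in C1M, 165, 149, 156 and 170.1 in C1H and 182, 179, 173 and 174 in C1T. It was 238, 238, 247 and 200.4 CPM in C1MV and 208, 194, 219.7 and 233 in C1HV after withdrawal, and 217, 222, 232 and 186 in C1MDT and 205, 222, 189 and 225 in C1HDT with the inducers kept. The 16 libraries of the last 4 groups were all higher than the other 16. Against C1T the difference was a log2 fold change of 0.39 ± 0.08, FDR 4.55e-05 in C1MV, and the smallest of the 4 was a log2 fold change of 0.24 ± 0.08, FDR 0.0128 in C1HDT, lost without C1HDT replicate 4. From day 0 to day 4 Dvl2 rose in C1MV by 0.45 ± 0.08 (FDR 7.05e-07) and in C1HV by 0.42 ± 0.08 (FDR 6.78e-06) on the log2 scale, and without induction it was not called (log2 fold change of 0.09 ± 0.08, FDR 0.415). Every C1T library was nevertheless just above every C1 library. The interaction was called in C1MV (0.36 ± 0.12, FDR 0.0138), C1HV (0.33 ± 0.12, FDR 0.031) and C1HDT (0.31 ± 0.12, FDR 0.0399), the last lost in 9 of 23 alternatives, without C1 replicate 4, C1H replicate 2, C1T replicate 3 or C1HDT replicate 4 among them. In C1MDT it was 0.25 ± 0.12 (FDR 0.11) and was called only without C1 replicate 1, C1M replicate 4 or C1MDT replicate 4. Acadvl, on the opposite strand with an exon within the last 1000 bases of Dvl2, had 1541 reads in all, and the same limit on strand applies.

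Dvl1 was higher than in C1T in 3 of the 4 groups. Dvl1 (chromosome 4, 155847402 to 155859303) was 25.4, 29.6, 22.4 and 18.9 CPM in C1T, 37.9, 33.3, 29.8 and 39.9 in C1MV (log2 fold change of 0.51 ± 0.17, FDR 0.0115), 41.8, 36.3, 25.8 and 42.3 in C1HV (log2 fold change of 0.56 ± 0.17, FDR 0.00628) and 34.7, 29.1, 43.1 and 32.3 in C1HDT (log2 fold change of 0.51 ± 0.16, FDR 0.0085). Tas1r3, which overlaps Dvl1 in the same way as Acadvl overlaps Dvl2, had 28 reads in all. The C1MV libraries lay above those of C1T, whereas those of C1HV and C1HDT overlapped on them, and the C1HDT call was lost without C1HDT replicate 3. C1MDT, at 34.02, 26.9, 30.1 and 29.2 CPM, was not called (log2 fold change of 0.29 ± 0.17, FDR 0.186). Between days Dvl1 was called only in C1MV vs C1M (log2 fold change of 0.43 ± 0.16, FDR 0.0183), and not without C1MV replicate 1. In the other comparisons between days it was called only with a library left out, in C1HV vs C1H without C1H replicate 1 or 3 or C1HV replicate 3 and in C1HDT vs C1H without C1H replicate 1 or C1HDT replicate 2. The endoderm marker sums given above separated all 4 groups from C1T, and their part in the Dvl1 differences was not tested.

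Of 30 further genes of the pathway, all tested, 18 were called in C1T vs C1 (49.3% of all genes tested), 13 higher and 5 lower, with a median log2 fold change of 0.32 against 0.01 for all genes tested. Of the 15280 genes tested, 3722 were called higher and 3806 lower. Among the largest changes of the 30 were Siah1b, a ubiquitin ligase (log2 fold change of 2.17 ± 0.17, FDR 8.41e-23), and Frat2, a GSK-3 binding protein (log2 fold change of 1.45 ± 0.27, FDR 1.71e-06). Axin2, the Axin paralogue induced by Wnt signalling, was also called higher (FDR 0.014), but it had only 0, 0, 5 and 3 reads in C1 and 8, 7, 6 and 6 in C1T, and no fold change is given because its C1 mean lay below the floor. The counts in the other comparisons between days were 17 (13 higher) in C1MV vs C1M (45.9% of all genes), 20 (15 higher) in C1MDT vs C1M (52.4%), 18 (11 higher) in C1HV vs C1H (47.0%) and 20 (13 higher) in C1HDT vs C1H (55.7%). Of the 15280 genes tested, 3358, 3743, 3354 and 4023 were called higher in these comparisons, in the same order. The core of the ligase that works with β-TrCP was among the pathway genes called: Skp1a, Cul1 and Rbx1 were called higher in all 5, with Skp1a up by 1.26 ± 0.08 (FDR 5.84e-30), Cul1 by 0.92 ± 0.09 (FDR 3.60e-18) and Rbx1 by 1.00 ± 0.09 (FDR 2.20e-21) in C1HDT. The share of all genes called higher in all 5 was not counted. Csnk1e, a casein kinase 1 isoform that acts in Wnt signalling, fell between days in all 5 and was higher than C1T in all 4 groups that had carried the fusion, by between 0.68 (C1HV) and 0.86 (C1MDT) on the log2 scale. Siah1b was lower than in C1T in all 4, by a log2 fold change of -1.27 in C1MV, and is a close copy of Siah1a, so that the split of reads between them is uncertain. At day 0, 4 of the 30 were called in C1M vs C1 (26.3% of all genes), 1 higher and 3 lower, and 12 in C1H vs C1 (25.9%), 5 higher and 7 lower. Of all genes tested, 2184 were called higher and 1838 lower in C1M vs C1, and 2113 and 1852 in C1H vs C1. Skp1a, Cul1 and Rbx1 were among those lower in C1H, by log2 fold changes of -0.31, -0.45 and -0.27, and Cul1 was also lower in C1M (log2 fold change of -0.37 ± 0.09, FDR 0.000911). Usp34, a deubiquitinase that acts on Axin, was lower in C1M (log2 fold change of -0.64 ± 0.07, FDR 2.65e-13) and was also called lower in C1H.

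Over the 8 group means of log2 CPM, the pair of these genes most alike was Gsk3b and Btrc (Pearson r = 0.93) and the most opposed pair was Apc and Fbxw11 (r = -0.93), as a description over 8 points that share libraries and the step between days. Across all genes tested, the means most like those of Btrc belonged to Penk (r = 0.995), Wdr92 (r = 0.994) and Agfg1 (r = 0.993). For Apc they were Slain2 (r = 0.992), Gm10269 and Kmt2b (both r = 0.990). Taking all 8 groups at once, edgeR called 8 of the 10 genes (78.0% of all genes tested), all but Apc2 and Axin1. Among the 3 groups of day 0 it called 3 (29.2%), Apc, Csnk1a1 and Fbxw11. Among the 5 of day 4 it called 6 (42.8%), Apc, Gsk3a, Csnk1a1, Fbxw11, Dvl1 and Dvl2, and among the 4 that had carried the fusion it called 2 (19.0%), Apc and Gsk3a.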

How the data were processed

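RNA was measured by QuantSeq FWD, which sequences transcript 3′ ends, in 32 libraries of the C1 line. Per the study's methods, the authors used bbduk to trim, STAR to align (mm10) and htseq-count with an Ensembl gene model to count. Whether counting used strand was not given in the sources used here. The deposited tables hold raw counts of uniquely aligned reads for 31053 genes per library, and lines that name no gene were left out of library sizes. Between 36.5% and 41.9% of the reads tallied in a table fell on genes, between 4.72% and 11.2% on no gene, and most of the rest aligned more than once. Genes were named and placed with GENCODE on GRCm38 and promoter windows came from RefSeq (GRCm38.p6).

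Genes reaching 1 CPM in 4 or more libraries (15280) were scaled by TMM and tested in 1 fit of the 8 groups by the quasi-likelihood test of edgeR 4.0.16 in R 4.3.3, with Benjamini-Hochberg adjustment over them and a threshold of 0.05, as the study used edgeR at this FDR. The study's further filter on reads that align more than once could not be repeated. CPM are TMM scaled, and group means for likeness used log2 CPM with a prior count of 2. Count ratios were compared by exact permutation. P-values measure the spread between cultures labelled as biological replicates. A figure legend of the paper places the 4 samples of a group in the same experiment, so spread between experiments is not covered. Alternatives were RLE size factors, library size alone, DESeq2 1.42.0, other filters, a replicate block, a fit restricted to the compared groups and the omission of each library. The scripts were tested on simulated data.

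The 10 genes, the 30 further pathway genes and the marker lists were chosen with earlier results of these data known. Named were all 10 genes, the pathway genes with the largest called changes in a comparison (at most 3) plus Ctnnb1 and Axin2, the genes most like Btrc and Apc, and genes overlapping a member. Skp1a, Cul1, Rbx1, Csnk1e, Siah1b and Usp34 were followed into further comparisons after their values were seen. Ppp2r5a, Ppp2r5c and Ppp2r1a were likewise named after their values were seen. Replicate numbers did not pair the libraries: same-numbered libraries of different groups had deviations that correlated by -0.0016 on average, and none of 112 such pairs exceeded 0.1. Replicates of a group differed by more than sampling noise, so each counted as 1. Counting floors of 3 reads cover counting error only.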

Additional observations from a re-analysis of the deposited data

Results flagged for a closer look

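In 2 of 72 sets of 4 libraries examined, 1 library stood apart from the other 3 by Dixon's criterion, which chance meets in about 1 in 20. Gsk3b in C1HDT had its lowest library at 186.9 CPM, with the others between 199.1 and 201.0 CPM. Dvl2 in C1 had its lowest library at 153.5 CPM, with the others between 170.2 and 173.0 CPM.

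The change from day 0 to day 4 differed from that of the uninduced cells (C1T vs C1) by edgeR's interaction test for the genes below, in interactions that each called 2 or 3 of the 10 genes and between 21.9% and 25.2% of all genes tested. All of these differences use the same C1 and C1T libraries. They include the day 0 differences from C1, where Apc and Csnk1a1 were already lower in C1M and C1H. For Apc the difference on the log2 scale was 0.49 in C1MV, 0.42 in C1MDT and 0.50 in C1HV. Csnk1a1 had 0.36 in C1MV and 0.37 in C1HV, and with the inducers kept 0.42 in C1MDT and 0.49 in C1HDT. For Dvl2 it was 0.36 in C1MV, 0.33 in C1HV and 0.31 in C1HDT. Gsk3b had 0.32 in C1MDT. The sums of naive pluripotency and endoderm markers also differed between these groups, and their part in these values was not tested.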

How the results depend on the processing

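Of 59 calls of a gene in a comparison, 41 held under every alternative run, and of 141 values not called, 19 were called under at least 1. No called value changed sign. With all libraries kept, the number of genes called moved by more than 1.5 times in 3 comparisons. In C1MDT vs C1MV it was 1, and 0 with library size only, no filter, the replicate block or a fit of only the groups compared. In C1HDT vs C1HV it was 2, and 1 with RLE size factors, library size only, no filter, at least 1 CPM in all libraries, DESeq2 or only the groups compared. For the interaction of C1HDT it was 2, and 1 with RLE size factors, library size only, no filter, at least 1 CPM in all libraries or DESeq2. The cause was not tested. Leaving out 1 library at a time gave between 1 and 2 calls in C1HDT vs C1HV, 3 and 5 in C1HDT vs C1T, 4 and 7 in C1MDT vs C1M (7 without C1M replicate 2 or C1MDT replicate 4), 0 and 1 in C1MDT vs C1MV, 2 and 4 in C1MDT vs C1T, 2 and 4 in C1MV vs C1T, and 1 and 2 in the interaction of C1HDT, which are moves by more than 1.5 times. The replicate block, with numbers that did not pair the libraries (7 of 32 correlated best with their own number), removed 3 of the 59 calls and added none. Library size only moved the median log2 fold change of all genes to 0.12 in C1M vs C1 and in C1H vs C1, -0.10 in C1MDT vs C1M and -0.14 in C1HDT vs C1H. Depth limited Apc2, which stayed near the floor.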
